A study of Homo sapiens with 18 samples.

Results

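MYC and 31 genes that it is known to induce were followed across the tumours of the series. The rows of the deposited count table were taken by gene name: MYC, 26 genes of ribosome biogenesis and 5 of polyamine synthesis, nucleotide synthesis and translation, 32 of the 58735 genes in the table. The cells were OCI-Ly18, an established human line of diffuse large B-cell lymphoma (DLBCL), made to carry green fluorescent protein and grown under the skin of immunodeficient NSG mice. The tazemetostat group was 3 mice given tazemetostat at 150 mg/kg daily by oral gavage for 14 days from day 3 after implantation. Tazemetostat, also called EPZ6438, blocks EZH2, an enzyme that methylates histone H3. The vehicle group was 3 mice given vehicle over the same time. All 6 mice were infused with CART19 cells, T cells engineered to carry a chimeric antigen receptor. The fluorescent tumour cells were sorted for RNA 11 days after the infusion, so neither group shows the cells without CART19. Whether dosing went on beyond the infusion is not stated in the labels, and all tumours derive from 1 cell line.

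MYC is a transcription factor that pairs with MAX and binds the DNA sequence CACGTG, called the E-box. Among the genes it induces most widely are those that make ribosomes. RNA polymerase I transcribes the ribosomal RNA precursor in the nucleolus, small nucleolar ribonucleoproteins (snoRNPs) modify it, the small subunit processome cleaves it, and further factors assemble the large subunit. In the germinal center, from which this kind of lymphoma arises, MYC is on in the B cells that are selected to divide, and in many aggressive B-cell lymphomas it is constantly on. EZH2 adds a repressive mark to histone H3, and its inhibition is known to release silenced genes. The comparison asked whether lymphoma cells that had been under EZH2 inhibition differed in the expression of MYC and this growth programme after exposure to CART19 cells.

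The E-box is shown where it stands near the start of a member gene, because it is the sequence through which MYC acts. Of the 32 members, 24 had an entry in the RefSeq promoter table (build GRCh38.p14), which holds 250 bases before and 50 bases after the start of a gene. The motif CACGTG, which reads the same on both strands, was in 8 of these 24 windows (33.3%) and in 9.90% of the 11499 windows of equal length that belong to tested genes. The related motif CACGCG, searched on both strands and unable to overlap CACGTG, was in 16.7% of the members' windows and 17.8% of those of tested genes. The windows of the members had a median of 66.3% G and C, against 64.7% for tested genes. A match of letters is not a bound site, and no match says only that these letters are not in this window. The 8 matches follow with up to 12 bases on each side, read 5′ to 3′ on the strand of the gene, with the E-box in capitals.
FBL (chr19:39846356-39846385, minus strand): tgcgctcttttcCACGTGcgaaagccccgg
MRTO4 (chr1:19251807-19251836, plus strand): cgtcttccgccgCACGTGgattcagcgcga
NOP2 (chr12:6568242-6568268, minus strand): aggtccggattgCACGTGgagggccgc
PES1 (chr22:30591880-30591909, minus strand): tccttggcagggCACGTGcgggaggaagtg
RRP9 (chr3:51941892-51941921, minus strand): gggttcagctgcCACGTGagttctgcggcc
SRM (chr1:11060200-11060229, minus strand): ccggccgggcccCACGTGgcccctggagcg
UTP20 (chr12:101280083-101280112, plus strand): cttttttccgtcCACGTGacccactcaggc
WDR43 (chr2:28894658-28894687, plus strand): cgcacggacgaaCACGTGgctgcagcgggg
The match began 199 bases before the start of SRM, 10 before that of UTP20 and 5 before that of RRP9. In FBL, MRTO4, NOP2, PES1 and WDR43 it lay after the start, by 6, 14, 35, 13 and 3 bases. MYC, TCOF1, NOLC1, NOP58, RRP12, BOP1, RRS1 and IMPDH2 had no entry.

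The 18 libraries, 3 from each mouse, held 16124494 to 26336269 counts. Sums per mouse were 59132193 to 69816184 in tazemetostat mice and 55712115 to 66053406 in vehicle mice. B-cell markers were abundant in both groups, with summed levels of 6150 to 6340 CPM (counts scaled to library size) in tazemetostat and 5918 to 6715 CPM in vehicle mice. The T-cell receptor components CD3D and CD3G had 0 counts in every mouse, CD8B had at most 1, and CD3E had 1, 7 and 3 counts in tazemetostat mice and 3, 4 and 9 in vehicle mice. Other T-cell markers, CD247 among them, were expressed, so the list as a whole was not near 0. Of 15 T-cell markers 6 were tested, with summed levels of 157 to 193 CPM with tazemetostat and 153 to 191 CPM with vehicle. Which cells these transcripts came from was not tested. Myeloid markers summed to 1.03 to 1.47 CPM with tazemetostat and 1.08 to 1.33 CPM with vehicle. Of these, 4 of 9 were at 0 in every mouse. Fibroblast and endothelial markers summed to 3.91 to 5.60 CPM with tazemetostat and 2.65 to 6.14 CPM with vehicle, and 3 of 10 were at 0. The counts are of human genes, so low levels of these markers do not measure cells of the host mice. No marker was called, and the smallest edgeR adjusted p, 0.465, was that of CD247, at 49.2 ± 3.95 CPM with tazemetostat and 36.6 ± 5.82 CPM with vehicle (SD, n = 3 each). Library M_768_C of the tazemetostat group stood apart, and the members' values with and without it are given below.

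MYC itself was among the most abundant messenger RNAs of these tumours. Its level was 1172, 1200 and 1113 CPM in M_767, M_768 and M_774 of the tazemetostat group, against 1120, 1142 and 1222 CPM in vehicle mice M_766, M_769 and M_770. The groups overlapped, and the highest mouse was a vehicle mouse while the lowest was a tazemetostat mouse. The means were 1161 ± 44.3 CPM with tazemetostat and 1161 ± 53.7 CPM with vehicle (SD, n = 3 mice each), so the log2 fold change rounded to zero. Its 95% interval ran from -0.21 to 0.21 (edgeR adjusted p = 1), which bounds a change in either direction at 1.155-fold up and a fold of 0.866 down. Each mouse sum held between 65662 and 83195 counts of MYC, so counting error was small beside the spread between mice. The gene lies on chromosome 8, 127735434 to 127741434, plus strand.

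Scaled to gene length, MYC led the list with 387 CPM per kilobase, the mean of the 6 mice, above 99.6% of the 20301 tested genes. The length used is that of all annotated exon bases, which need not be that of the messenger RNA, so this order is approximate. In CPM without this scaling, NCL (1577 with tazemetostat, 1543 with vehicle) and NPM1 (1410 and 1359) were above MYC (1161 and 1161). NPM1, which encodes the nucleolar chaperone nucleophosmin, followed with 362 CPM per kilobase. Their ranges over mice, 371 to 407 for MYC and 326 to 400 for NPM1, overlapped, so their order is not clear of the spread. NCL (nucleolin) came next at 225 CPM per kilobase. Then FBL, ODC1 and IMPDH2 lay between 175 and 177 CPM per kilobase, with ranges that overlapped. Of the 32 members, 21 were above the 90th percentile of tested genes by this measure.

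**Figure D1:**
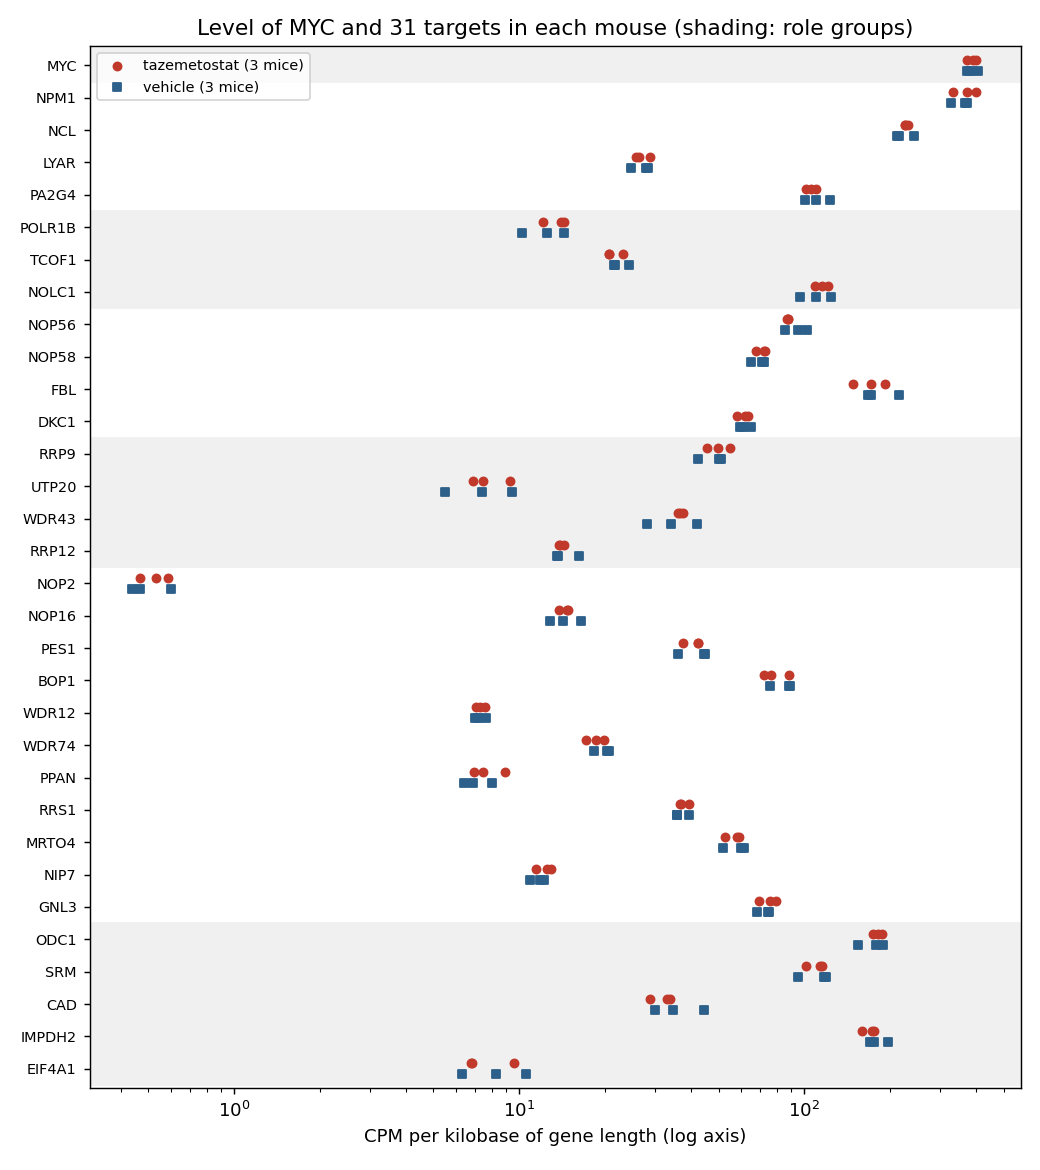
Level of each member in each of 6 mice, in CPM per kilobase of gene length on a log axis, with 3 tazemetostat mice as red circles above 3 vehicle mice as blue squares in every row. MYC and NPM1 are highest, NOP2 is lowest at 0.516 CPM per kilobase, and the points of both groups overlap in all 32 rows.

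No member differed between tazemetostat and vehicle mice past the threshold. All 32 were tested, and 0 had an edgeR adjusted p under 0.05, where 7 of 20301 genes (0.0345%) did. At an unadjusted p under 0.05 the count was 0 of 32 with edgeR, beside 6.55% of all tested genes, and 0 with DESeq2. In no member did the 3 tazemetostat mice all lie above or all below the 3 vehicle mice, which was the case for 12.6% of tested genes. That count changed when single mice were left out. Without M_769, 8 members were lower and 1 higher without overlap, beside 9.3% and 10.5% of genes, and without M_770, 6 were higher and 0 lower, beside 13.9% and 14.2%. Without tazemetostat mouse M_767, 4 were higher and 1 lower, beside 9.96% and 10.1% of genes, and without vehicle mouse M_766, 0 were higher and 1 lower, beside 13% and 11.5%. Log2 fold changes were positive in 15 members (46.9%, beside 48.1% of all tested genes) and negative in 17. Their median was -0.0014 beside -0.0091 over all tested genes, and they ran from -0.19 for CAD to 0.13 for PPAN. The 8 members whose E-box is printed above lay between -0.12 for FBL and 0.08 for WDR43.

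The size of the difference was bounded for each gene. The 95% interval of the log2 fold change included 0 in 32 of 32 members, and in 32 of 32 both of its ends lay within a 1.5-fold change. The narrowest interval was 0.37 wide and the widest, that of NOP2, 0.86. These intervals are approximate, taken from the edgeR fit gene by gene and not adjusted for their number. An adjusted p near 1 does not show that the groups are equal, and differences inside these intervals remain possible with 3 mice a group. The intervals do not give the size of difference that would be called, because a call also rests on adjustment over all tested genes. Summed over all members, the level was 9582, 10127 and 10009 CPM in the tazemetostat mice and 10027, 9313 and 10509 CPM in the vehicle mice. The vehicle mice thus held both the lowest and the highest sum.

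**Figure D2:**
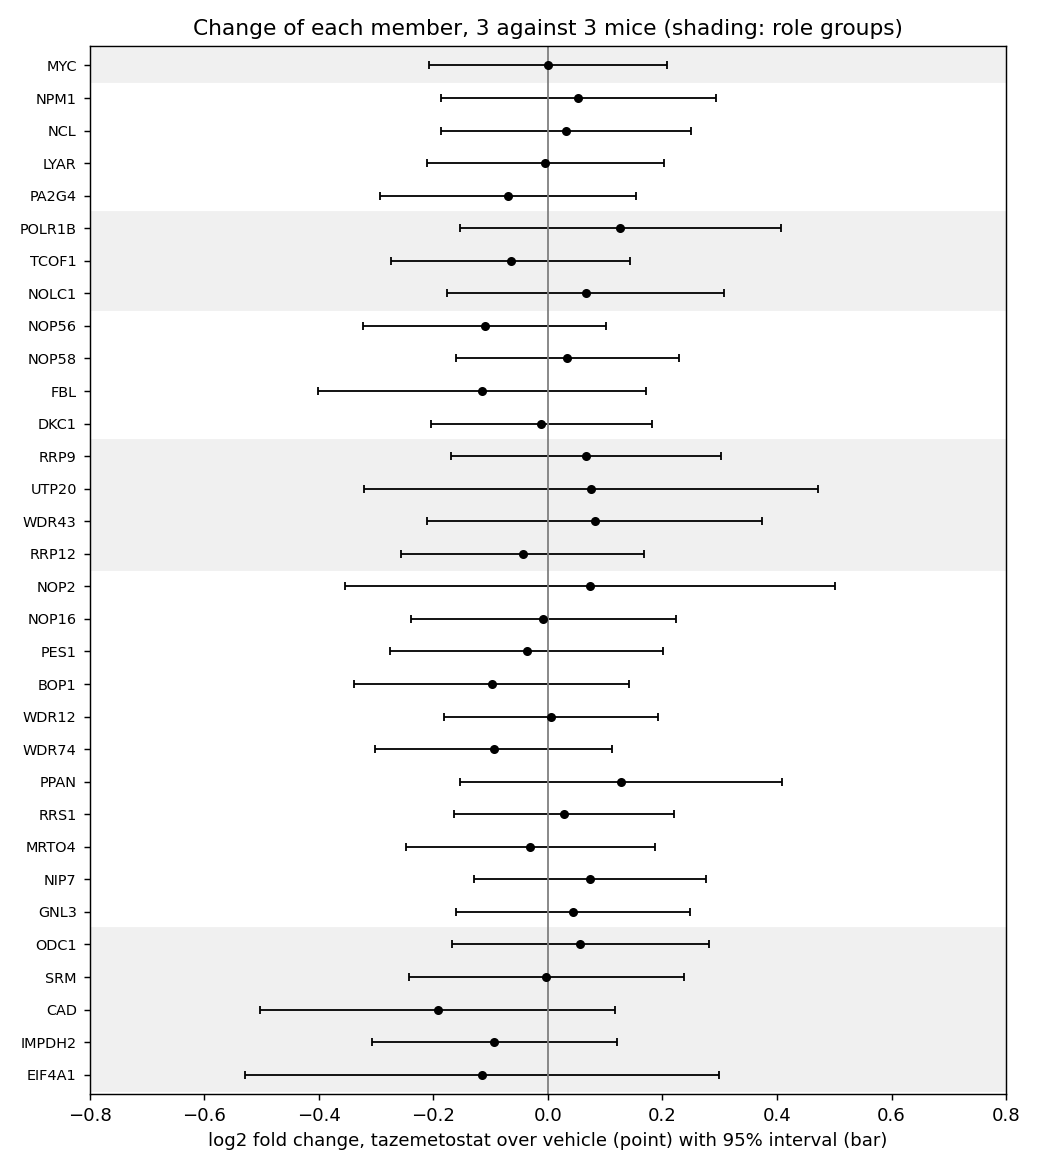
Log2 fold change of tazemetostat over vehicle for each member (point) with its 95% interval (bar), from 3 against 3 mice, members grouped by role. Every bar crosses 0 and none passes 0.53 in size, with the longest bars at NOP2, EIF4A1 and UTP20.

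The abundant nucleolar proteins split evenly, with 2 of 4 positive and a median log2 fold change of 0.01. NPM1 was at 1274, 1530 and 1428 CPM in tazemetostat mice and at 1422, 1249 and 1406 CPM in vehicle mice. Each group had 1 mouse below the rest, M_767 and M_769, and the log2 fold change of 0.05 (interval -0.19 to 0.29, edgeR adjusted p = 0.97) was inside the spread. PA2G4, a growth-regulated RNA-binding protein of the nucleolus also called EBP1, was at 386, 401 and 418 CPM with tazemetostat and at 468, 380 and 418 CPM with vehicle. One vehicle mouse, M_766, was the high point there. NCL had the smallest relative spread of this group under tazemetostat (1577 ± 20.02 CPM, against 1543 ± 116 CPM in vehicle mice, SD, n = 3 each). LYAR, a nucleolar cofactor of ribosomal RNA synthesis, was at 62.3 ± 3.98 and 62.5 ± 4.58 CPM in tazemetostat and vehicle mice.

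Genes that act in transcription of ribosomal RNA had 2 of 3 positive log2 fold changes. POLR1B, the second largest subunit of RNA polymerase I, was at 91.2, 76.4 and 88.5 CPM in tazemetostat mice, against 64.9, 79.1 and 90.6 CPM in vehicle mice. Its log2 fold change was 0.13 (interval -0.15 to 0.41, edgeR adjusted p = 0.919), and the vehicle mice spread more widely than the tazemetostat mice. NOLC1, a chaperone of snoRNPs that links them to polymerase I, was at 459, 433 and 481 CPM with tazemetostat and at 383, 436 and 492 CPM with vehicle. TCOF1, which encodes the nucleolar scaffold treacle, had a log2 fold change of -0.06.

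Among the snoRNP proteins 1 of 4 was positive. FBL, the methyltransferase fibrillarin that modifies ribosomal RNA, was at 321, 417 and 372 CPM with tazemetostat and at 467, 362 and 373 CPM with vehicle. Its log2 fold change of -0.12 (interval -0.40 to 0.17, edgeR adjusted p = 0.929) was inside the spread, with vehicle mouse M_766 the highest of the 6 and tazemetostat mouse M_767 the lowest. NOP56, a core protein of the same box C/D particles, was the most even gene of the list under tazemetostat, at 469, 472 and 474 CPM, while vehicle mice were at 551, 462 and 514 CPM. The log2 fold change of NOP56 was -0.11 (edgeR adjusted p = 0.9). NOP58, its partner in the particle, stood at 0.03 and DKC1, the pseudouridine synthase dyskerin, at -0.01 on the log2 scale.

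Small subunit factors had 3 of 4 positive log2 fold changes and a median of 0.07. RRP9, a protein of the U3 snoRNP, was at 71.9, 86.8 and 78.7 CPM in tazemetostat mice and at 79.5, 66.7 and 80.4 CPM in vehicle mice. UTP20 and WDR43, components of the small subunit processome, were named after their values were seen, because their mice spread widely. UTP20 was at 92.7, 68.7 and 74.6 CPM with tazemetostat and at 55.2, 74.2 and 94.7 CPM with vehicle. WDR43 was at 151, 149 and 155 CPM with tazemetostat, inside the vehicle mice at 116, 141 and 174 CPM. In both genes M_766 was lowest and M_770 highest, and both are vehicle mice. RRP12, which takes part in export of pre-ribosomes, had a log2 fold change of -0.04.

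The 11 large subunit factors had 6 positive and 5 negative log2 fold changes with a median of 0.0051. BOP1, which with PES1 and WDR12 forms the PeBoW complex, was at 268, 327 and 284 CPM with tazemetostat and at 331, 281 and 329 CPM with vehicle. The log2 fold changes of the 3 subunits were -0.10 for BOP1, -0.04 for PES1 and 0.0051 for WDR12. WDR74, a regulator of large subunit maturation, was at 72.6, 83.9 and 78.8 CPM in tazemetostat mice, against 86.0, 77.6 and 87.7 CPM in vehicle mice. It had the smallest p of the large subunit factors, with an edgeR adjusted p of 0.917 and a log2 fold change of -0.09. The other members ran from -0.03 for MRTO4, a ribosome assembly protein, to 0.13 for PPAN, the human Peter Pan homolog. GNL3 (nucleostemin) was at 0.04, NIP7 at 0.07, RRS1 at 0.03, NOP16 at -0.0077 and the ribosomal RNA methyltransferase NOP2 at 0.07.

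Of the metabolic and translation genes 1 of 5 was positive, with a median log2 fold change of -0.09. CAD, the enzyme that starts pyrimidine synthesis, had the smallest p of all 32 members. It was at 284, 243 and 277 CPM in tazemetostat mice and at 252, 290 and 375 CPM in vehicle mice. Vehicle mouse M_770 was the high point, and the log2 fold change of -0.19 (interval -0.50 to 0.12) had an unadjusted p of 0.197 and an adjusted p of 0.878 with edgeR. It was -0.30 without vehicle mouse M_766 (edgeR unadjusted p = 0.0217, adjusted p = 0.486) and -0.01 without M_770. ODC1, which makes the first polyamine, was at 515, 538 and 558 CPM with tazemetostat and at 560, 459 and 529 CPM with vehicle. SRM, the spermidine synthase, was at 209 ± 14.7 CPM in tazemetostat and 209 ± 25.1 CPM in vehicle mice (SD, n = 3 each). IMPDH2, which controls guanine nucleotide synthesis, had a log2 fold change of -0.09 and the translation initiation helicase EIF4A1 one of -0.12.

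For NOP2, PPAN and EIF4A1 the counts are uncertain, because other gene models share many of their exon bases. NOP2 was at 2.48 ± 0.275 CPM in tazemetostat and 2.35 ± 0.411 CPM in vehicle mice, with 121 to 177 counts in a mouse sum. In GENCODE release 29, 54.4% of its exon bases were also exons of a gene on the same strand, AC006064.6, which had 0 counts. For PPAN, at 20.01 ± 2.64 CPM in tazemetostat and 18.3 ± 2.13 CPM in vehicle mice, 59.8% of exon bases were shared, mainly with the read-through gene PPAN-P2RY11, which held 10 counts over all libraries. EIF4A1, at 41.0 ± 8.48 and 44.4 ± 11.3 CPM in tazemetostat and vehicle mice, shared 48.6% of its exon bases and also had 13 pseudogenes of its name. These held 3805 counts against its own 15925. How reads in shared exons were counted is not given in the sources used here, so the levels of these genes are uncertain. NPM1 had 45 pseudogenes of its name, which together held 2.54% as many counts as NPM1. On the opposite strand, exons of other genes covered 20.2% of the exon bases of NIP7 and slightly less of those of NOP16, which matters if strand was not used.

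In 23 of 32 members (71.9%) the SD between mice of a group exceeded the SD between libraries of a mouse, beside 65.4% of the 9419 genes with a mean of at least 10 CPM. The medians of these SDs over the members were 0.116 between mice and 0.105 between libraries on the log2 scale. Without M_768_C, left out here after its values were seen, the medians were 0.105 and 0.0433, and 30 of 32 members (93.8%) had the larger SD between mice, beside 78% of the 9419 genes. With all libraries, 1 member, NOP56, had a difference between the group means larger than the SD between mice (3.12%, beside 32.4% of the 9419 genes). Without M_768_C there were 6 (18.8%, beside 39.1%), namely NOP56, FBL, NOP2, BOP1, WDR74 and IMPDH2. Both extremes were vehicle mice: M_770 was the highest mouse for 15 members and M_769 the lowest for 18. The median deviation of the members from their mean over 6 mice was -0.06, 0.04 and 0.03 on the log2 scale in M_767, M_768 and M_774 of the tazemetostat group, against -0.01, -0.08 and 0.08 in vehicle mice M_766, M_769 and M_770.

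Gene length moved with these deviations. Spearman's rho between gene length and a mouse's deviation over the 32 members was 0.521, -0.757 and 0.0572 in M_767, M_768 and M_774, the tazemetostat mice, and -0.446, 0.559 and 0.434 in vehicle mice M_766, M_769 and M_770. Over the 9419 genes it was 0.469, -0.424 and 0.0614 in the same tazemetostat mice and -0.489, 0.361 and 0.317 in the same vehicle mice. Positive and negative values thus occurred in both groups. M_768 was the only tazemetostat mouse with negative values, and its sum includes library M_768_C, described next. Its values without that library are not given here. All these values of rho are descriptions across genes of the same libraries, and the part of length in the results was not tested.

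In library M_768_C the members departed from the other libraries of the same mouse. Relative to M_768_A and M_768_B, 23 of 32 members (71.9%) were higher in it, with a median log2 difference of 0.23, beside 51.6% and a median of 0.02 over the 9419 genes. FBL was at 580 CPM in M_768_C, against 349 and 380 CPM in the other libraries of the mouse, and RRP9 was at 117 CPM, against 74.9 and 78.5 CPM. Of the long members, CAD was lower, at 191 CPM against 257 and 272 CPM, and so was UTP20, at 53.1 CPM against 76.4 and 73.3 CPM. Other long members were higher, by 0.18 for NCL, 0.05 for WDR12 and 0.05 for RRP12 on the log2 scale. EIF4A1 stood at 19.4 CPM there, against 44.2 and 39.7 CPM. MYC was 0.14 higher on the same scale. Spearman's rho between gene length and this difference was -0.705 over the 32 members and -0.647 over the 9419 genes, whose part in it was not tested. Without M_768_C, again 0 of 32 members were called, beside 7 of 20091 genes (0.0348%). In that fit 0 members were separated between the groups, beside 7.99% of genes higher and 7.01% lower without overlap. The median log2 fold change was -0.02 beside -0.0066 over all tested genes. Log2 fold changes of single members differed from those with all libraries. Without it NPM1 was at 0.0011, RRP9 at 0.0038, ODC1 at 0.02, NCL at 0.02, GNL3 at 0.03 and NIP7 at 0.04, all nearer to 0 than with it, as were EIF4A1 at -0.04 and TCOF1 at -0.03. Farther from 0 were FBL at -0.19, BOP1 at -0.16, PES1 at -0.08, MRTO4 at -0.07, SRM at -0.07, NOP16 at -0.06, LYAR at -0.05 and DKC1 at -0.03, and on the positive side NOP2 at 0.17 and UTP20 at 0.12. RRS1 changed sign to -0.01, and MYC was at -0.0086.

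**Figure D3:**
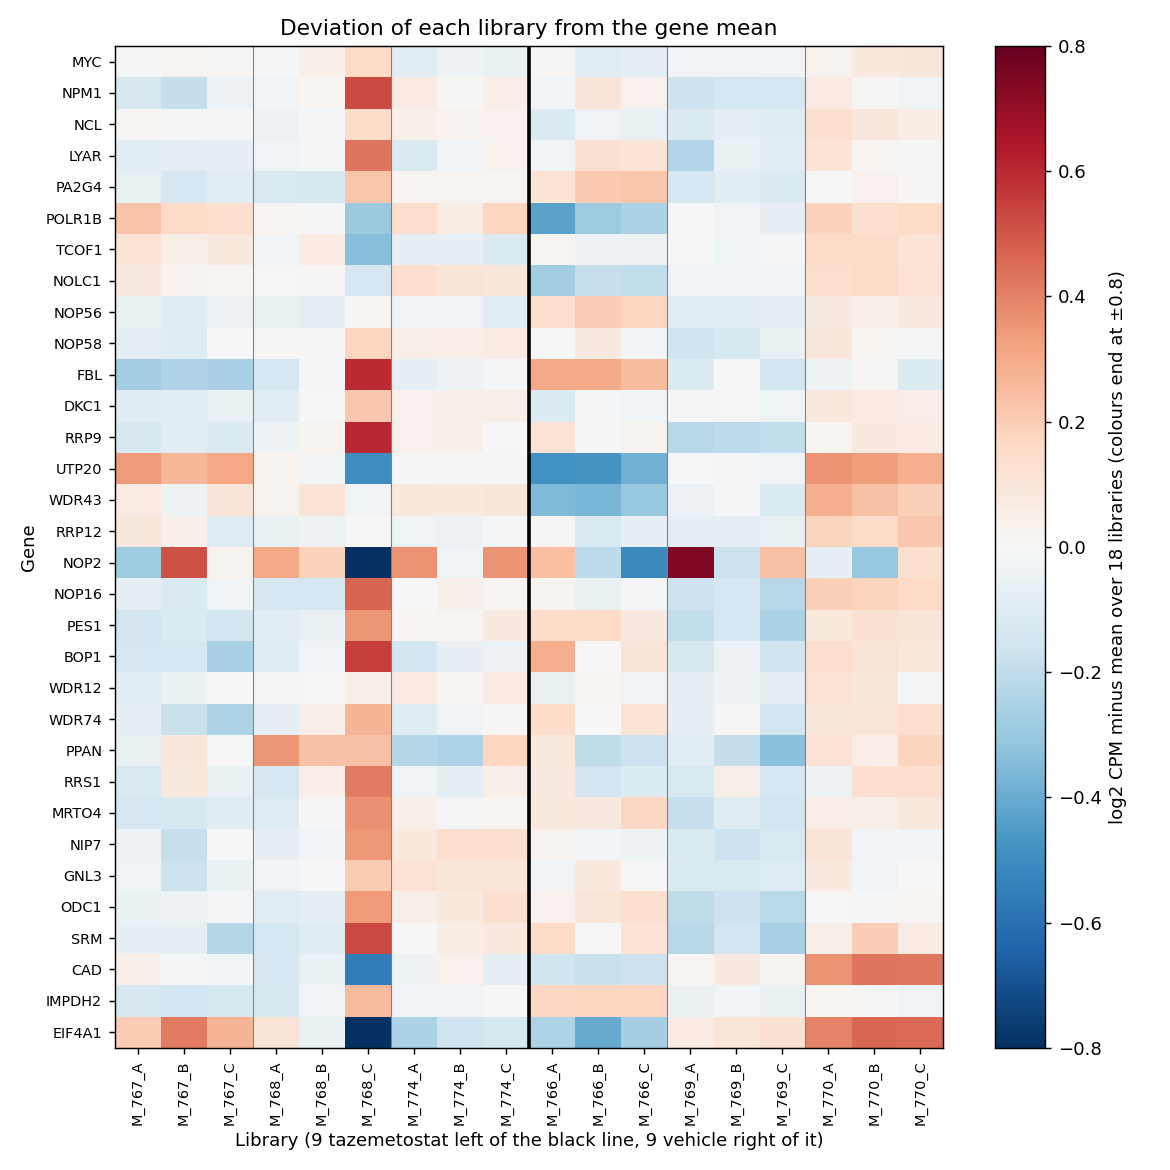
Deviation of each library from the mean of the gene over 18 libraries, in log2 CPM, with 9 tazemetostat libraries left and 9 vehicle libraries right of the black line (red is higher, blue lower, colours end at 0.8). M_768_C differs from the other libraries of its mouse in most rows, M_770 is red and M_769 blue in many, and NOP2 varies between libraries of the same mouse.

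**Figure D4:**
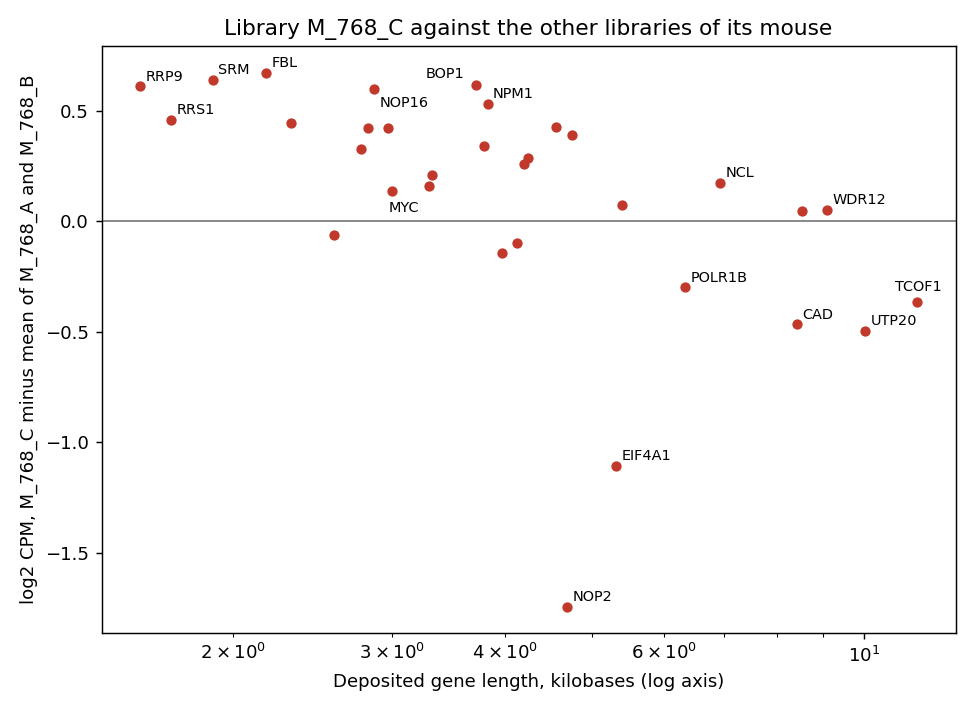
Difference of each of 32 members in library M_768_C from the mean of the other libraries of its mouse, in log2 CPM, against the deposited gene length in kilobases on a log axis. Short genes such as RRP9, SRM and FBL lie above 0, and UTP20, CAD, TCOF1 and POLR1B below it, with EIF4A1 and NOP2 lowest.

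Over the 6 mice, the relation of each target to MYC was described by its correlation. Pearson's r between log2 CPM of MYC and each of the 31 other members was positive for 24 and negative for 7, with a median of 0.331 for r and 0.257 for Spearman's rho. None of the 31 relations passed after adjustment over them (exact permutation tests, two-sided, smallest adjusted p = 0.847 for r and 0.95 for rho). The highest was RRS1, with r = 0.845 (exact permutation p = 0.0472) and rho = 0.6 (exact permutation p = 0.242). Without M_770 and M_774, the mice farthest from the median of MYC, its r was 0.911, and the median over the 31 members was 0.217. NOP2 was the lowest with r = -0.399 (exact permutation p = 0.403). Among the other members, the median r was 0.43 over their 465 pairs, 72.5% of them positive, and this was not tested against the relations to MYC. All of them share the same libraries, scaling factors and the relation to gene length given above.

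Other genes of the pathway were read from lists that hold none of the members. The lists were chosen with earlier results of these data known. In the MYC network, the partners, antagonists and cofactors of MYC, 19 of 20 genes were tested and 0 were called, with a median log2 fold change of -0.01. Without overlap 0 were higher and 1 was lower, beside 6.58% and 6% of all tested genes. The lower one was WDR5, named after its values were seen. At an edgeR unadjusted p under 0.05 there were 0 higher and 1 lower, MXD3, beside 3.34% and 3.21%. MXD3, which competes with MYC for MAX, was at 34.0, 42.0 and 33.9 CPM with tazemetostat and at 75.1, 59.6 and 37.7 CPM with vehicle. The groups overlapped because of vehicle mouse M_770, and the log2 fold change of -0.65 had an edgeR adjusted p of 0.543. MXD4, of the same family, was at 28.7 ± 2.26 CPM with tazemetostat and 32.5 ± 4.54 CPM with vehicle. MAX itself was at 82.1 ± 2.44 and 77.1 ± 2.34 CPM in tazemetostat and vehicle mice.

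Beyond the members, ribosome biogenesis genes were not called either. Of the 14 other genes of the RNA polymerase I machinery 0 were called, 7 were positive, and 1 was higher and 2 lower without overlap, where 6.58% of all tested genes were higher and 6% lower in that way. UBTF, which opens ribosomal DNA for transcription, was at 407, 369 and 391.7 CPM with tazemetostat and at 427, 437 and 480 CPM with vehicle. Every tazemetostat mouse was below every vehicle mouse, with a log2 fold change of -0.20 (edgeR adjusted p = 0.763). POLR1E, a polymerase I subunit, was lower without overlap as well (log2 fold change -0.14, edgeR adjusted p = 0.839). Of 12 further snoRNP proteins and assembly factors 7 were positive, with SHQ1 at 0.20 and ZNHIT6 at 0.14 on the log2 scale. In this list 3 were higher and 1 lower without overlap, beside the same 6.58% and 6%. Over all tested genes 48.1% of log2 fold changes were positive. The 39 further genes of the small subunit processome had 27 positive (69.2%, median 0.05), with UTP15 and PNO1 both at 0.17. Of these, 1 was higher and 1 lower without overlap. The 40 further large subunit factors had 27 positive (67.5%, median 0.03), with 4 higher and 2 lower without overlap. Their smallest p belonged to the helicase DDX54, at 226 ± 3.21 CPM with tazemetostat and 268 ± 15.8 CPM with vehicle (SD, n = 3 each, log2 fold change -0.25, edgeR adjusted p = 0.616). NLE1, an assembly factor, was at -0.18.

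Genes that MYC is known to induce outside ribosome biogenesis had 27 of 50 positive log2 fold changes, a median of 0.01 and 0 calls. At an unadjusted p under 0.05 there were 3 higher and 1 lower, beside 3.34% and 3.21% of tested genes. TERT, the catalytic subunit of telomerase, was at 35.1, 35.5 and 27.9 CPM with tazemetostat and at 39.1, 48.8 and 61.0 CPM with vehicle. TFRC, the transferrin receptor, went the other way, at 446, 394 and 408 CPM with tazemetostat and at 320, 344 and 354 CPM with vehicle. Both were separated between the groups, and neither passed (log2 fold changes -0.59 and 0.29, edgeR adjusted p = 0.44 and 0.543). In the whole list of 50 genes, 3 were higher and 2 lower without overlap, beside 6.58% and 6% of all tested genes.

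Genes known to be repressed by MYC had 8 of 16 positive, a median of 0.02 and 0 calls, and 5 of the 16 were higher in tazemetostat mice without overlap, beside 6.58% of all tested genes. TXNIP, an inhibitor of glucose uptake, was at 53.4, 52.4 and 64.9 CPM with tazemetostat and at 44.8, 36.7 and 35.0 CPM with vehicle (log2 fold change 0.55, edgeR adjusted p = 0.321). CDKN1A, the cell cycle inhibitor p21, was at 70.6, 69.5 and 80.8 CPM with tazemetostat and at 53.1, 50.1 and 30.97 CPM with vehicle (log2 fold change 0.72, edgeR adjusted p = 0.37). The other 3, named after their values were seen, were the antiproliferative genes TOB1, BTG1 and BTG2, at 0.44, 0.32 and 0.27 on the log2 scale. A list of genes induced by tissue dissociation and stress was mostly higher in tazemetostat mice, though no gene in it was called. Of its 23 tested genes 21 were positive (median log2 fold change 0.67) and 10 were higher without overlap, beside the same 6.58%, and its summed level was 1408 to 1828 CPM in tazemetostat mice and 883 to 1239 CPM in vehicle mice. The smallest p there belonged to ATF3, at 24.7 ± 1.23 CPM with tazemetostat and 13.4 ± 2.29 CPM with vehicle, and to ZFP36, at 39.2 ± 2.38 CPM with tazemetostat and 26.9 ± 3.92 CPM with vehicle (SD, n = 3 each, edgeR adjusted p = 0.108 and 0.291). Its part in the levels of the MYC-repressed genes was not tested. Both lists were chosen with earlier results of these data known, so their counts beside the share of all genes are descriptions and not tests.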

How the data were processed

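The authors deposited whole-number counts of reads per Ensembl gene for 58735 genes and 18 libraries, with no normalization, as the file headers and values show. Gene lengths stood beside them and equalled the exon bases of GENCODE release 29 for 32 of 32 members, and all 58735 coordinates matched that release. The submitters' processing notes name hg38 and DESeq2, without saying which version or for what. The aligner, the counter and whether strand was used: not given in the sources used here.

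The 3 libraries of a mouse were summed, since the mouse received the treatment (n = 3 mice a group). The sums were fitted with edgeR 4.0.16 (R 4.3.3) by its quasi-likelihood F test after TMM scaling. The filter was filterByExpr with a minimum count of 10, which kept 20301 genes, and the others held 0.0602% of counts. P-values were adjusted by Benjamini-Hochberg over all tested genes, with a threshold of 0.05. CPM are counts scaled to the library size times its TMM factor. Intervals rest on an approximate standard error, |log2 fold change| over the root of F. The steps were tested on simulated counts. Relations to MYC used exact permutation tests. Variants used DESeq2 1.42.0, other scaling factors and filters, 18 libraries with mouse as a random effect (limma 3.58.1), and fits without a mouse or library. Members and gene lists were chosen with earlier results of these data known. Values per mouse were given for MYC, for the members of each role with the smallest p and the highest CPM per kilobase, and means or values for up to 2 genes of each list with the smallest p.

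Replicates are separate mice, and all carry the same cell line. What the 3 libraries of a mouse are is not stated in the labels.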

Additional observations from a re-analysis of the deposited data

Results flagged for a closer look

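In 18 of 64 sets of 9 libraries (32 members in each group) the highest or the lowest library stood farther from its neighbour, relative to the range, than Dixon's 95% critical value allows. Chance flags about 1 in 20 such sets, and libraries of a mouse are not independent. Of the 18, 17 were library M_768_C of the tazemetostat group.

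Most of these were high in M_768_C. NPM1 was at 1993 CPM there, beside 1207 to 1444 CPM in the other 8 tazemetostat libraries, and NCL at 1723 CPM beside 1509 to 1603 CPM. LYAR was at 83.7 CPM (others up to 63.9), PA2G4 at 478 CPM (others up to 418) and DKC1 at 299 CPM (others up to 266). FBL was at 580 CPM beside 316 to 381 CPM, RRP9 at 117 CPM beside 70.7 to 79.5 CPM, and BOP1 at 443 CPM beside 253 to 296 CPM. NOP16 was at 57.0 CPM, PES1 at 239 CPM, RRS1 at 85.0 CPM and MRTO4 at 207 CPM, where the other libraries reached 42.5, 197, 67.2 and 166 CPM. ODC1 was at 666 CPM, SRM at 301 CPM and IMPDH2 at 578 CPM, where the others reached 574, 220 and 485 CPM.

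CAD, at 191 CPM beside 257 to 290 CPM, and NOLC1, at 404 CPM beside 446 to 487 CPM, were low in M_768_C. The remaining one was NOP2 in library M_769_A of the vehicle group, at 3.82 CPM beside 1.60 to 2.70 CPM.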

How the results depend on the processing

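Under all 13 alternatives 0 of 32 members were called, and their median log2 fold change ran from -0.03 to 0.05. Leaving out 1 mouse gave 0 to 6 members higher and 0 to 8 lower without overlap, beside 9.96% to 13.9% and 9.3% to 14.2% of all genes, and medians of -0.02 to 0.05. At an unadjusted p under 0.05 there was 1 member without M_766 (CAD, lower) and 1 without M_770 (WDR43, higher). Their edgeR adjusted p in these fits were 0.486 and 0.43. With all mice 6.55% of tested genes had an unadjusted p under 0.05. The share of all genes in the fits without M_766 and without M_770 is not given here, so these counts are not read as results. Over all genes the calls varied more: 252 without a count filter, 124 with DESeq2, 256 with 18 libraries and mouse as a random effect, and 0 to 59 with 1 mouse left out, against 7. The cause was not tested.

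Signs near zero turned. With DESeq2 size factors in edgeR, MYC was at 0.0032 and SRM at 0.00020, as with the DESeq2 test. With upper-quartile factors WDR12 was at -0.027 and RRS1 at -0.0039. Without a filter MYC was at 0.011, LYAR at 0.0067, NOP16 at 0.0029 and SRM at 0.0083. Without M_768_C, RRS1 was at -0.015. With mouse as a random effect and no block, MYC was at 0.0077, LYAR at 0.0040 and SRM at 0.0095.

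No pairing of the samples by library letter was seen in this measure. Deviations over all tested genes correlated on average by -0.0041 between mice for the same letter and 0.0021 for different letters. Genes with few counts weighed as much as the others there, so a weak shared effect could be missed. With the letter as a replicate block 224 genes and 0 members were called, with MYC at 0.0078, LYAR at 0.0076, NOP16 at 0.0037 and SRM at 0.011.

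With 1 mouse left out, log2 fold changes of 22 members took both signs: DKC1 -0.034 to 0.031, EIF4A1 -0.30 to 0.090, FBL -0.21 to 0.021, LYAR -0.062 to 0.043, MRTO4 -0.10 to 0.030, MYC -0.023 to 0.043, NCL -0.0033 to 0.10, NOLC1 -0.011 to 0.17, NOP16 -0.088 to 0.095, NOP2 -0.0089 to 0.23, NOP58 -0.0098 to 0.069, NPM1 -0.0080 to 0.12, ODC1 -0.018 to 0.13, PA2G4 -0.14 to 0.020, PES1 -0.13 to 0.028, RRP12 -0.088 to 0.051, RRP9 -0.013 to 0.13, RRS1 -0.0052 to 0.084, SRM -0.097 to 0.057, UTP20 -0.093 to 0.29, WDR12 -0.021 to 0.049 and WDR43 -0.041 to 0.25. The other members kept their sign, with CAD at -0.30 to -0.01, POLR1B at 0.02 to 0.25 and PPAN at 0.02 to 0.23. Counting error is small at these depths except for NOP2, and the number of mice limits the precision. Whether the mice or libraries share other sources of spread is not given in the labels.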
